A study of Mus musculus with 12 samples.

Results

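The effect of adding SEMA3A protein to cocultures in which the tumour cells overexpressed SEMA6A was measured in mouse splenocytes, across all genes of the array. The samples were chosen by their labels alone: 3 arrays of splenocytes with SEMA6A-overexpressing tumour cells and SEMA3A protein, and 3 arrays with the same tumour cells and no SEMA3A protein, which makes 6 of the 12 arrays of the study. The splenocytes came from DBA/2 mice aged 10 weeks and had been kept for 9 days with the tumour line KLN-205, which derives from a squamous lung carcinoma of the mouse. SEMA3A was knocked down in the tumour cells of every group, so purified protein was the added source of it, and interleukin-2, the growth factor of activated T cells, was given at 100 units/mL. The SEMA6A+SEMA3A group had SEMA6A-overexpressing tumour cells and purified SEMA3A at 10 µg/mL. The SEMA6A group had those tumour cells without the protein. The other 6 arrays, 3 with SEMA3A protein and tumour cells that did not overexpress SEMA6A (SEMA3A) and 3 with neither factor (Control), were used to share the estimate of the spread and to ask whether the SEMA3A difference itself depended on SEMA6A. Whether replicate arrays stand for separate cultures, mice or tumour cell clones is not given in the labels, so the p-values measure the spread between these samples, which may be technical.

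SEMA3A is a secreted class 3 semaphorin. It binds neuropilin-1, which forms a receptor with class A plexins, and was first known for repelling growing axons. In lymphocytes and macrophages the same receptors act on migration and adhesion through small GTPases, and on signalling at the immune synapse. SEMA6A is a transmembrane semaphorin that binds plexin-A2 and plexin-A4 directly, without a neuropilin. The 2 semaphorins can therefore meet at plexins of the same class.

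All signals given are normalised array signals, and differences are on the log2(signal + 16) scale, with SEMA6A+SEMA3A minus SEMA6A, which understates the difference for dim genes. The median signal of an array as deposited lay between 42.5 and 53.5, so genes with signals of that size were dim. The 3 SEMA6A+SEMA3A arrays lay closer to each other (median within-group SD over genes 0.118) than the 3 SEMA6A arrays (0.225). Measured from the mean of the SEMA6A+SEMA3A arrays, the median gene was 0.115 away on SEMA6A replicate 1, 0.304 on replicate 2 and 0.179 on replicate 3. SEMA6A replicate 2 also stood apart in RNA measures: its ratio of 3'-end to 5'-end signal for Gapdh was 1.22, against 0.767 to 0.818 on the other 11 arrays. For the transferrin receptor, that ratio was 12.2, 5.93 and 11.2 on the SEMA6A+SEMA3A arrays, against 8.39, 35.7 and 23.3 on the SEMA6A arrays. The part of RNA quality in the differences below was not tested. Results are therefore also given without SEMA6A replicate 2, which is far from the others, and without SEMA6A replicate 1, which is near the SEMA6A+SEMA3A arrays. The second choice widens the difference by construction. On the first principal component of all 12 arrays (31.4% of the variance), the SEMA6A+SEMA3A arrays lay at -13.0, -9.85 and -10.8, against -12.4, 37.8 and 12.8 for the SEMA6A arrays. The SEMA3A arrays lay at 21.0, 12.5 and -7.22, against -7.29, -14.0 and -9.64 for the Control arrays. SEMA6A replicate 1 and SEMA3A replicate 3 thus lay among arrays of other groups, away from the replicates that share their labels. Whether arrays were exchanged was not tested, and every difference, the interaction and each call without an array follow the labels as given.

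No gene of the 11325 tested passed an adjusted p of 0.05 (limma with Benjamini-Hochberg adjustment, 0% called, lowest adjusted p 0.257), while 1304 had an unadjusted p under 0.05 (11.5%), of which 590 were higher with SEMA3A protein (5.21%) and 714 lower (6.3%). The groups did not overlap for 765 genes that were higher (6.75%) and 828 that were lower (7.31%). A difference over 2-fold was measured for 69 genes, 26 higher and 43 lower. The median 95% interval of a gene reached 0.33 to each side. Leaving out SEMA6A replicate 1 let 381 genes pass, 145 higher and 236 lower. Leaving out SEMA6A replicate 2 let 0 pass and lowered the number with an unadjusted p under 0.05 to 699.

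The smallest p belonged to Slc5a5, the sodium iodide symporter of the thyroid. It had signals of 72.6, 76.2 and 80.9 on the SEMA6A+SEMA3A arrays, against 16.8, 15.1 and 15.2 on the SEMA6A arrays, a log2 difference of 1.55 ± 0.24 (SE, adjusted p = 0.257). The groups were far apart, but the SEMA6A signals lay below the median of their arrays. The difference was 1.53 without SEMA6A replicate 2. Control arrays had 70.4, 89.5 and 49.8, so the low values were those of the SEMA6A group.

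The other 9 of the 10 higher genes with the smallest p had varied known roles. Dnajb12, a J-domain co-chaperone of the endoplasmic reticulum, had 381, 336 and 370 on the SEMA6A+SEMA3A arrays, against 179, 235 and 165 on the SEMA6A arrays (log2 difference 0.87 ± 0.16). Cycs, which encodes cytochrome c of the respiratory chain, had 23396, 24315 and 23396, against 18605, 17652 and 17812 with SEMA6A alone (0.40 ± 0.09), and all 3 of its probe sets had the same sign. In both genes every SEMA6A+SEMA3A array was above every SEMA6A array. The histone-binding protein gene Anp32b had 17744, 16193 and 18362, against 14634, 13043 and 13423 with SEMA6A alone (0.35 ± 0.07). Tra2a, a regulator of splicing, differed by 0.42 ± 0.09, and 2 of its 3 probe sets had that sign. Snrpf, a core protein of spliceosomal small nuclear ribonucleoproteins, differed by 0.44 ± 0.10. Scyl2, a clathrin-associated pseudokinase, differed by 0.82 ± 0.16, and 2 of its 3 probe sets had that sign. For Lypla1, an acyl-protein thioesterase, the probe set used differed by 0.50 ± 0.10 and the other had the opposite sign. Nudt17, a Nudix hydrolase, was dim, at 79.8, 86.1 and 66.4 against 18.6, 33.8 and 27.0 with SEMA6A alone. The last of the 10, Ifng, is described with the cytokines.

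Among the 10 lower genes with the smallest p, Erdr1 had 141, 186 and 159 on the SEMA6A+SEMA3A arrays, against 382, 393 and 347 on the SEMA6A arrays (log2 difference -1.13 ± 0.21). Acta1, the actin of skeletal muscle, had 10.9, 10.6 and 10.3, below the median of an array, against 86.7, 64.1 and 46.1 with SEMA6A alone (-1.59 ± 0.37). Mtdh, which encodes metadherin, had 3390, 3332 and 3339, against 4922, 4446 and 5341 with SEMA6A alone (-0.54 ± 0.13), although only 3 of its 5 probe sets had that sign. Its other probe sets past the filter differed by 0.01, -0.05, 0.17 and -0.25. For these 3 genes the groups did not overlap. Without SEMA6A replicate 2 the differences were -1.10 for Erdr1, -1.59 for Acta1 and -0.61 for Mtdh. Clic4, of the intracellular chloride channel family, had 4686, 4444 and 4537, against 5534, 6861 and 5935 with SEMA6A alone (-0.42 ± 0.10). Its other probe sets past the filter differed by -0.10 and 0.05. Cnp, the cyclic nucleotide phosphodiesterase known from myelin, had 4316, 5474 and 4910, against 6771, 9671 and 8297 (-0.74 ± 0.17). Its other probe sets differed by -0.14 and 0.03. On the probe sets used, both genes were separate between the groups. Cercam differed by -0.97 ± 0.22, Irgq, of the immunity-related GTPase family, by -0.88 ± 0.22 and Mfsd4b4 by -0.99 ± 0.24. Spag1, an assembly factor of dynein arms, had 87.0, 104 and 98.5, against 150, 295 and 205 with SEMA6A alone. Fyttd1, an mRNA export adaptor, differed by -0.57 ± 0.12 on the probe set used, but the other 3 of its 4 probe sets had the opposite sign. Each of these 20 leading genes other than Slc5a5 had an adjusted p of 0.424. Without SEMA6A replicate 1, 16 of the 20 passed, 9 higher and 7 lower. That count is no separate test, since the 20 were picked by p from these arrays and the omission widens the difference by construction.

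**Figure D1:**
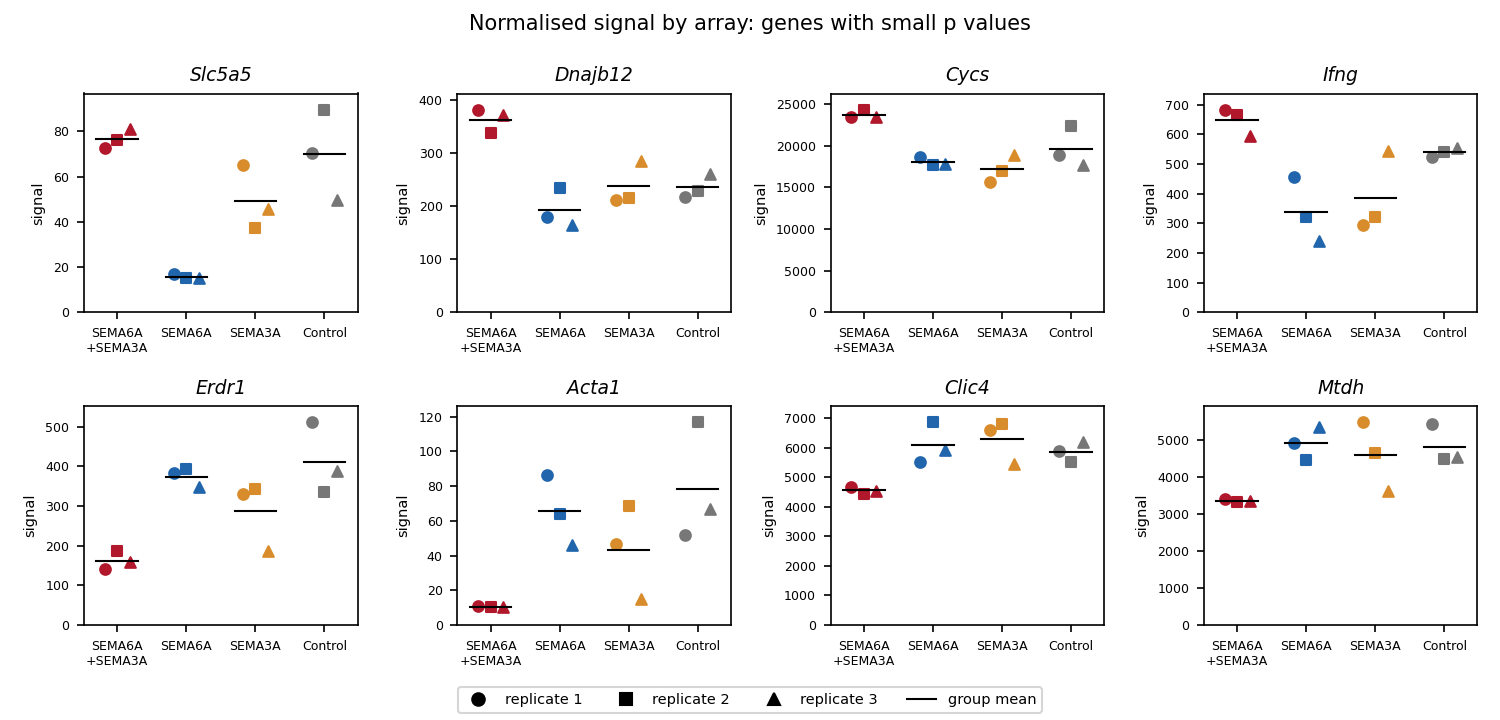
Normalised signal (linear axis from 0) of 8 of the genes with the smallest p on all 12 arrays, with SEMA6A+SEMA3A left, then SEMA6A, SEMA3A and Control. Symbols are replicates and bars are group means. In each of the 8 genes the 3 SEMA6A+SEMA3A arrays lie on one side of the 3 SEMA6A arrays, as in Slc5a5, at 72.6 to 80.9 against 15.1 to 16.8.

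Gene lists were read by their counts and medians beside those of all genes tested, of which 49.8% were above 0 and 50.2% below, with a median log2 difference of -0.00. Of the lists with at least 5 tested members, the lowest medians were those of squamous carcinoma (-0.41), hypoxia targets outside glycolysis (-0.34) and glycolysis with glucose uptake (-0.28). Highest was the list of helper T cell cytokines (0.36). The neutrophil list, with 4 tested members, had a median of -0.66. No member of any list passed the adjusted threshold on all arrays. Counts of list members at an unadjusted p under 0.05 stand against 5.21% of all genes higher and 6.3% lower, and counts without overlap against 6.75% higher and 7.31% lower. Counts that passed without SEMA6A replicate 1 stand against 145 higher and 236 lower over all genes tested (11325 with every array).

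**Figure D2:**
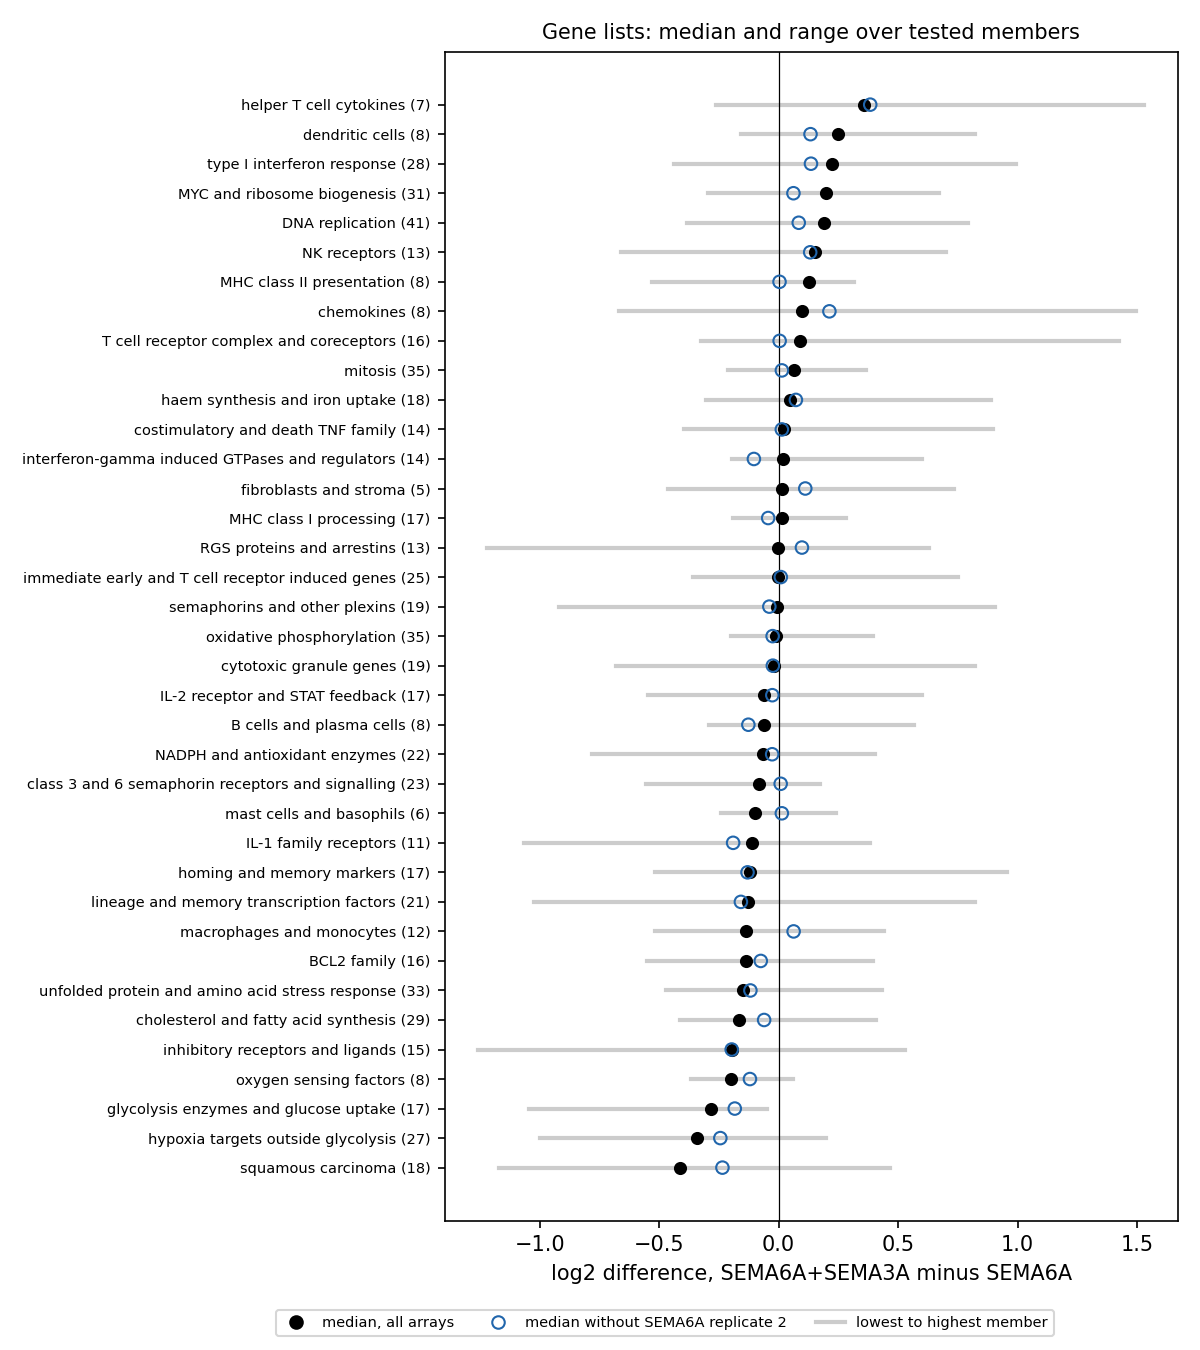
Median log2 difference, SEMA6A+SEMA3A minus SEMA6A, of each gene list with at least 5 tested members, whose number stands in parentheses. Filled points use all arrays, open points leave out SEMA6A replicate 2, and grey bars run from the lowest to the highest member. The glycolysis median is -0.28 with all arrays and -0.18 without that array, and the helper T cell cytokine median is 0.36 and 0.38.

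The enzymes of glycolysis turn glucose into pyruvate and lactate, and activated T cells run them at high flux. Many of their genes are targets of the hypoxia-inducible factors, which bind a short core sequence when oxygen, or the prolyl hydroxylases that sense it, are limiting. All 17 tested members of the glycolysis list were lower with SEMA3A protein than without it, 10 with an unadjusted p under 0.05 (background 6.3%), and the groups did not overlap for 4 (background 7.31%). Pgk1, phosphoglycerate kinase, had 24482, 22026 and 25204 on the SEMA6A+SEMA3A arrays, against 26424, 29526 and 27286 on the SEMA6A arrays (log2 difference -0.22 ± 0.07). Ldha, which encodes the lactate dehydrogenase subunit that favours lactate, had 29115, 27632 and 29167, against 30117, 37311 and 32397 with SEMA6A alone (-0.21 ± 0.07). In both genes the SEMA6A+SEMA3A arrays were all below the SEMA6A arrays, with SEMA6A replicate 1 of Ldha close to the gap. Pfkp, the platelet form of phosphofructokinase, had 7796, 7532 and 8209, against 8245, 14860 and 12333 with SEMA6A alone (-0.55 ± 0.20). Its other, dimmer probe sets differed by 0.40 and -0.08. Slc2a3, a high-affinity glucose transporter, had 11101, 13289 and 12392, against 12802, 21153 and 17447 (-0.46 ± 0.17). The widest difference of the list was that of the aldolase gene Aldoc, at 829, 995 and 946 against 877, 3958 and 2011 with SEMA6A alone (-1.04 ± 0.42). In Pfkp, Slc2a3 and Aldoc, SEMA6A replicate 1 sat within or beside the SEMA6A+SEMA3A arrays, and replicates 2 and 3 were well above. The smallest differences belonged to Pgam1 (-0.05 ± 0.09) and Hk2 (-0.06 ± 0.11), the hexokinase induced in activated T cells. The list's median was -0.18 without SEMA6A replicate 2, with 15 of 17 members below 0 and 2 with an unadjusted p under 0.05. It was -0.41 without SEMA6A replicate 1, and 8 members then passed as lower, beside 236 over all genes tested. Without SEMA6A replicate 2 the differences were -0.13 for Ldha, -0.36 for Pfkp, -0.29 for Slc2a3 and -0.52 for Aldoc.

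Hypoxia targets outside glycolysis had 24 of 27 tested members below 0 and 14 lower at an unadjusted p under 0.05 (6.3% of all genes). The groups did not overlap for 9, all lower (7.31% of all genes). Higd1a, a hypoxia-induced mitochondrial protein gene, had 9351, 8351 and 8933 on the SEMA6A+SEMA3A arrays, against 9763, 13020 and 11307 on the SEMA6A arrays (log2 difference -0.35 ± 0.10). Bnip3, which marks mitochondria for removal, had 9454, 9042 and 10346, against 10617, 15791 and 16364 with SEMA6A alone (-0.54 ± 0.18). P4ha1, a subunit of collagen prolyl hydroxylase, had 896, 848 and 950, against 995, 1305 and 1519 (-0.48 ± 0.17), but only 1 of its 2 probe sets had that sign. These 3 genes were separate between the groups, with SEMA6A replicate 1 the lowest of its group in each. Egln1, a prolyl hydroxylase that marks hypoxia-inducible factors for destruction, had 1918, 1960 and 1938, against 1960, 3220 and 3105 with SEMA6A alone (-0.47 ± 0.16). Its paralogue Egln3 had 1610, 1339 and 2014, against 2025, 4084 and 2295 (-0.70 ± 0.27, or -0.40 without SEMA6A replicate 2). The 3 members above 0 were Hilpda (0.20 ± 0.13), Bhlhe40 (0.09 ± 0.09) and Vegfa, the vascular growth factor, at 290, 235 and 278 against 252, 282 and 217 with SEMA6A alone (0.09 ± 0.16). The median of the list was -0.24 without SEMA6A replicate 2, with 23 of 27 below 0 and 4 with an unadjusted p under 0.05, and -0.46 without replicate 1, when 4 members passed. Of the sensors and factors themselves, 7 of 8 were below 0 with a median of -0.20. Hif1a, the inducible subunit, had 8160, 7961 and 8099, against 8802, 8447 and 8722 with SEMA6A alone (-0.10 ± 0.10), and Vhl, which recognises the hydroxylated factors, differed by -0.37 ± 0.15 on the probe set used and by 0.55 ± 0.28 on the other.

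**Figure D3:**
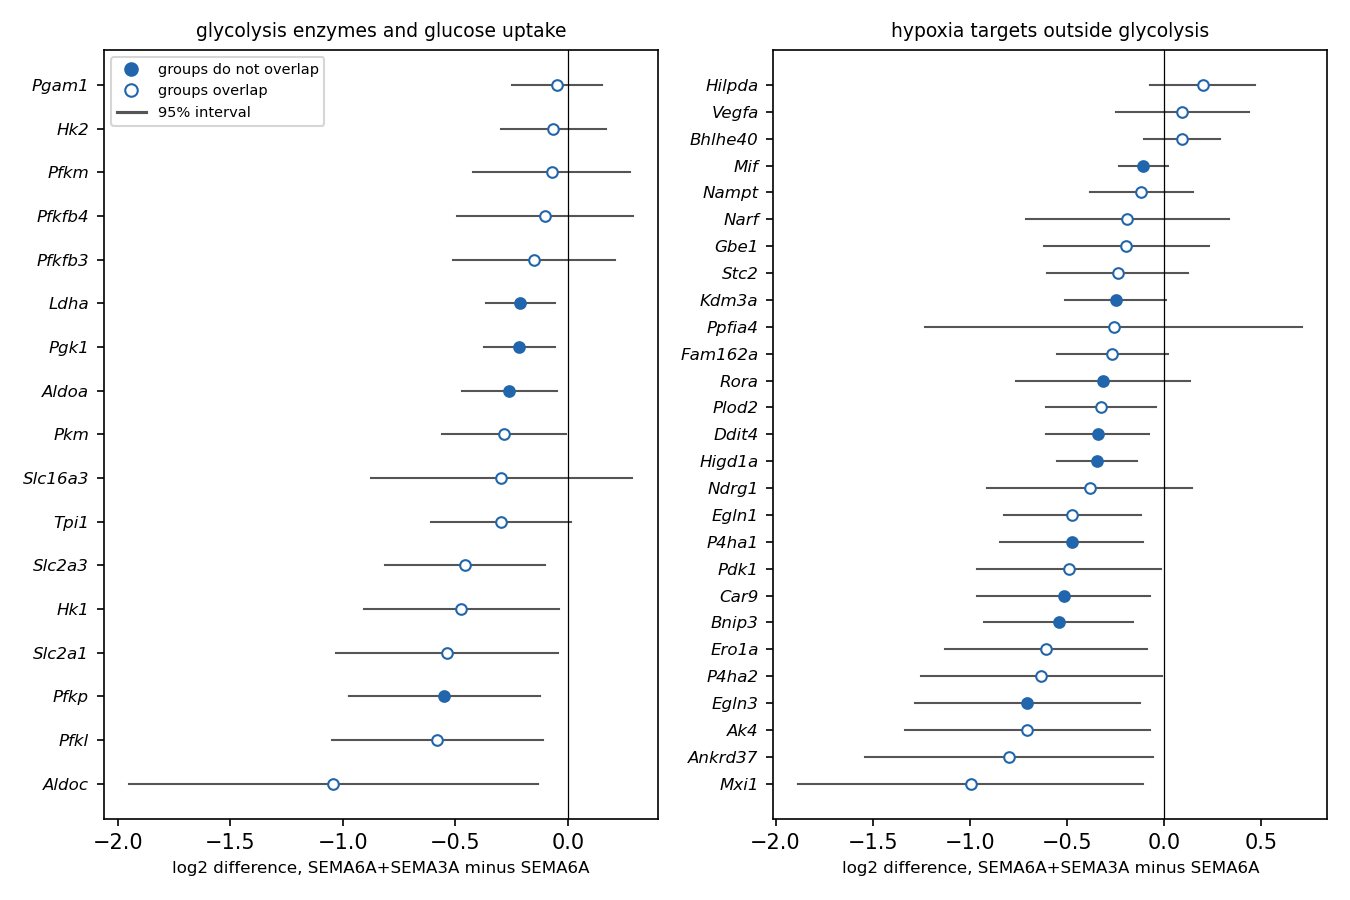
Log2 difference, SEMA6A+SEMA3A minus SEMA6A, of every tested member of the glycolysis list (left, 17 genes) and of the hypoxia list (right, 27 genes), with 95% intervals from limma. Filled points mark genes whose 3 SEMA6A+SEMA3A and 3 SEMA6A arrays do not overlap. All 17 glycolysis members lie below 0, down to Aldoc at -1.04, and 3 hypoxia members lie above 0.

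Other RNA moved with these lists from array to array. The mean deviation of the glycolysis members from each gene's mean over 12 arrays was -0.11, -0.18 and -0.14 on the SEMA6A+SEMA3A arrays, against -0.14, 0.45 and 0.26 on the SEMA6A arrays. That of the squamous carcinoma list, keratins and junction genes of the tumour cell type, was -0.06, -0.16 and -0.05, against 0.04, 0.44 and 0.32 with SEMA6A alone. The neutrophil list was further apart, at -0.27, -0.19 and -0.35, against -0.29, 0.78 and 0.40 with SEMA6A alone. Of the 6 arrays compared, SEMA6A replicates 2 and 3 were thus the high arrays of all 3 lists, with Gapdh ratios of 1.22 and 0.782. SEMA3A replicates 1 and 2 had Gapdh ratios of 0.775 and 0.771. They lay at 0.41 and 0.28 for glycolysis, 0.07 and 0.32 for squamous carcinoma, and 0.54 and 0.77 for neutrophils. Of 18 tested squamous members, 14 were below 0, with a median of -0.24 without SEMA6A replicate 2. At an unadjusted p under 0.05, 4 were lower (6.3% of all genes). Krt19, a simple epithelial keratin, had 41.4, 69.5 and 58.3 on the SEMA6A+SEMA3A arrays, against 80.4, 205 and 180 on the SEMA6A arrays (log2 difference -1.17 ± 0.53). Krt8 had 53.0, 50.3 and 95.003, against 90.7, 143 and 123 with SEMA6A alone (-0.74 ± 0.33), and the groups overlapped. The summed signal of the 7 defining tumour markers was 2327 to 2610 on the SEMA6A+SEMA3A arrays, against 2168 to 3207 on the SEMA6A arrays, most of it from Cdh1 and Epcam, while Krt14 and Trp63 were below the filter. Of the 7, Krt8 (-0.74), Krt18 (-0.47), Epcam (-0.27) and Trp63 (-0.19) were below 0, and Krt5 was at -0.00. Cdh1 (0.09) and Krt14 (0.90, means 27.3 against 7.30 with SEMA6A alone) were above 0. The part of tumour cell RNA, neutrophil RNA or RNA quality in the glycolysis and hypoxia values was not tested, and in bulk RNA fewer cells of a type and less RNA per cell cannot be told apart.

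**Figure D4:**
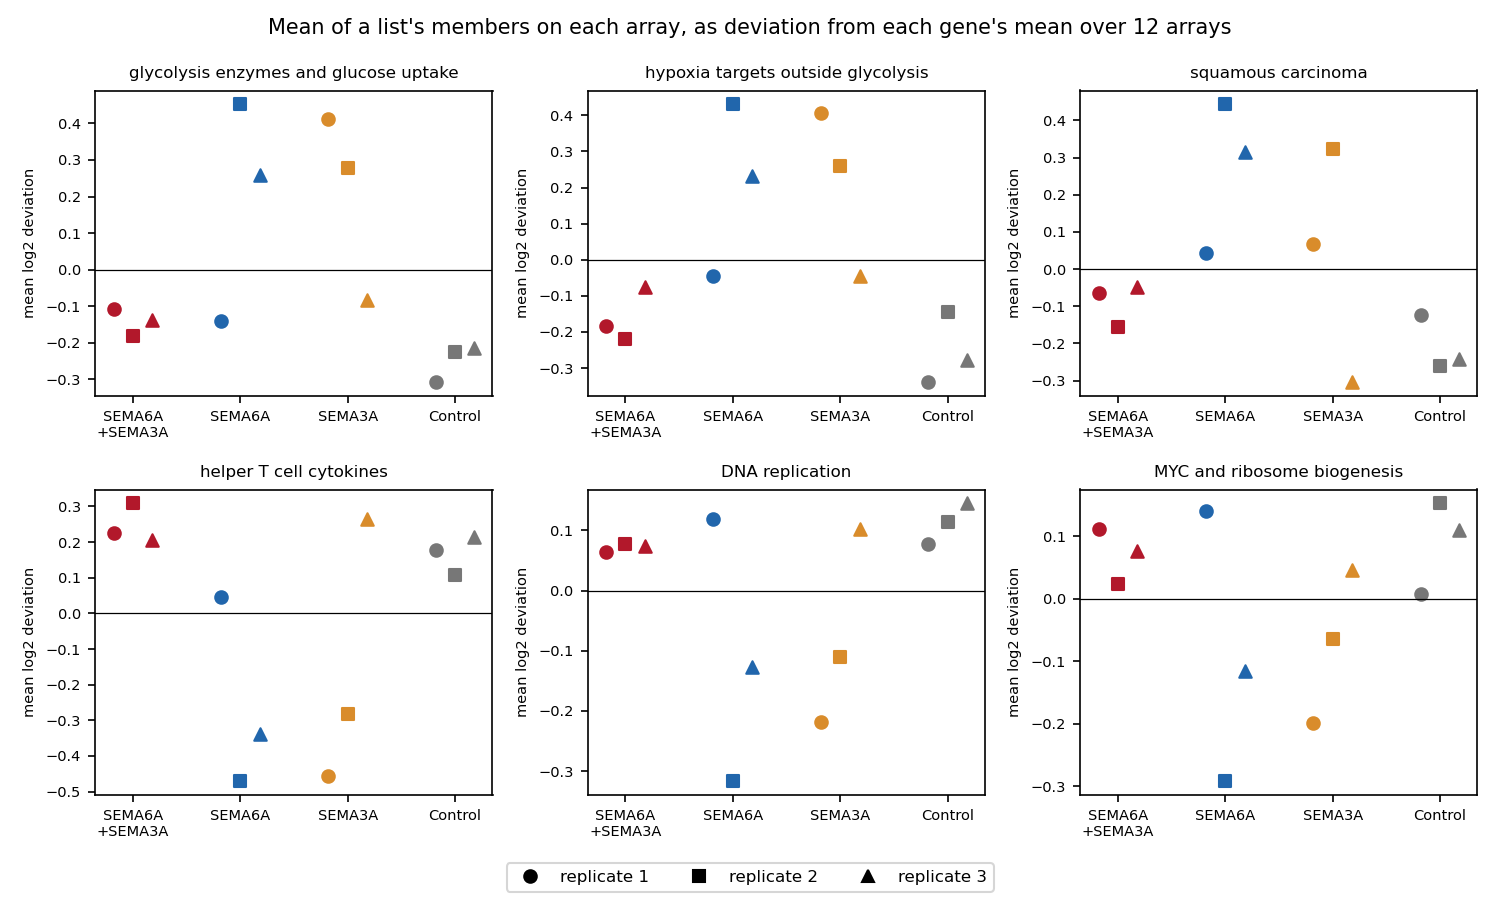
Mean log2 deviation of the tested members of 6 lists on each of the 12 arrays, from each gene's mean over all arrays, with SEMA6A+SEMA3A left, then SEMA6A, SEMA3A and Control; symbols are replicates and each panel has its own vertical scale. SEMA6A replicate 1 lies near the SEMA6A+SEMA3A arrays in the glycolysis panel, at -0.14, while replicates 2 and 3 are at 0.45 and 0.26.

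The hypoxia-inducible factors bind a core of which ACGTG is a form. Promoters of Bnip3, Pgk1 and P4ha1 are shown as examples, chosen after their values were seen, of members whose groups were separate and whose promoter holds that core. Each line gives the 250 bases before the gene's start from RefSeq in GRCm38.p6, 5′ to 3′ on the gene's strand, with ACGTG or its reverse complement CACGT in capitals. They lie at chr7:138909507-138909756 on the minus strand (Bnip3), chrX:106186850-106187099 on the plus strand (Pgk1) and chr10:59323046-59323295 on the plus strand (P4ha1).
Bnip3: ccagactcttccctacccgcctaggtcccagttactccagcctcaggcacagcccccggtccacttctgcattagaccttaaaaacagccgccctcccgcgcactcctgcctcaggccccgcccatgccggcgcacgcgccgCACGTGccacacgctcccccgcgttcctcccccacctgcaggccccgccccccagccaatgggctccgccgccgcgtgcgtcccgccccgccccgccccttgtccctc
Pgk1: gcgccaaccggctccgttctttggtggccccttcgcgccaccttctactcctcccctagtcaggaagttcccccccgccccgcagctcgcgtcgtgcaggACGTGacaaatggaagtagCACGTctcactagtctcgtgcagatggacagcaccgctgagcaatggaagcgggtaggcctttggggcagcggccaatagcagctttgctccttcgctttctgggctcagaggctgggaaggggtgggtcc
P4ha1: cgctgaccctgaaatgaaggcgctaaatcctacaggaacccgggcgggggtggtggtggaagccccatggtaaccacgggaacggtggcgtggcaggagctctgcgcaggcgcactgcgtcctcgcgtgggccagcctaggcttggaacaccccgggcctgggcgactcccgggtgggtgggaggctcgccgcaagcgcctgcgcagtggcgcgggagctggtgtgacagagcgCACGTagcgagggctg
Bnip3 and Pgk1 held 2 matches each and P4ha1 held 1. The 2 matches of Bnip3 overlap in the palindrome CACGTG, which is also the E-box that MYC and other factors bind. Of 44 tested members of both lists, 40 had a promoter in the table and 27 of these held ACGTG on either strand (67.5%). The share was 25.4% of the 9211 tested genes with a promoter and 18.5% of all 27025 genes with one. Since the hypoxia list is by its name one of hypoxia targets, a high share there is no separate test. A match describes the letters and is no sign of binding.

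Of 17 cytokine genes of helper and effector T cells, 15 were on the array, 8 were below the filter and 7 were tested. Of these 7, 5 were above 0, 3 had an unadjusted p under 0.05, all higher (background 5.21%), and the groups did not overlap for 4, all higher (background 6.75%). Ifng, which encodes interferon-gamma, had 683, 667 and 594 on the SEMA6A+SEMA3A arrays, against 455, 322 and 240 on the SEMA6A arrays (log2 difference 0.95 ± 0.22, adjusted p = 0.424). Every array with SEMA3A protein was above every array without it, and the difference was 0.93 without SEMA6A replicate 2. Csf2, the gene of granulocyte-macrophage colony-stimulating factor, had 865, 1042 and 867, against 667, 132 and 324 with SEMA6A alone (1.53 ± 0.56). Lta, lymphotoxin alpha, had 1153, 1139 and 1125, against 1122, 307 and 465 (1.04 ± 0.38). Both were separate, but in Lta only just, since SEMA6A replicate 1 lay at 1122 and the lowest SEMA6A+SEMA3A array at 1125. Tgfb1 differed by 0.13 ± 0.09, and the 2 members below 0 included Il10 (-0.26 ± 0.32). The list's median was 0.21 without SEMA6A+SEMA3A replicate 2. The differences were 0.96 for Csf2 and 0.64 for Lta without SEMA6A replicate 2. Without SEMA6A replicate 1, Ifng (1.17) and Lta (1.55) passed.

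Chemokine genes showed no common direction, with 4 of 8 above 0. Xcl1, the chemokine with which cytotoxic lymphocytes attract cross-presenting dendritic cells, had 1246, 1545 and 1192 on the SEMA6A+SEMA3A arrays, against 1071, 147 and 582 on the SEMA6A arrays (log2 difference 1.496 ± 0.64, or 0.73 without SEMA6A replicate 2). Cxcl16 was dim, at 88.5, 38.2 and 97.5 against 133, 126 and 106 (-0.67 ± 0.29). The groups did not overlap in either gene. Of 14 costimulatory and death members of the tumour necrosis factor family, 7 were above 0 and 3 had an unadjusted p under 0.05, all higher (5.21% of all genes). Tnfsf11, the gene of RANK ligand, had 1374, 1427 and 1455, against 1375, 457 and 680 with SEMA6A alone (0.90 ± 0.32, or 0.54 without SEMA6A replicate 2). Its SEMA6A replicate 1 fell among the SEMA6A+SEMA3A values. Tnfsf14, whose product LIGHT costimulates T cells, had 211, 230 and 164, against 137, 97.9 and 103 (0.76 ± 0.32), with no overlap. The death receptor gene Tnfrsf10b differed by 0.74 ± 0.25 at signals under 64 on all 6 arrays. Without SEMA6A replicate 1, Tnfsf11 (1.32) passed.

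Inhibitory receptors restrain activated T cells. Lag3 had 191, 238 and 224 on the SEMA6A+SEMA3A arrays, against 265, 989 and 596 on the SEMA6A arrays (log2 difference -1.26 ± 0.43). Pdcd1, the gene of the PD-1 receptor, had 375, 272 and 347, against 450, 810 and 650 with SEMA6A alone (-0.88 ± 0.34). Both were separate between the groups. Ctla4, whose product competes with CD28, had 1152, 1103 and 1371, against 1089, 3667 and 2639 (-0.86 ± 0.41), with SEMA6A replicate 1 below all the SEMA6A+SEMA3A arrays. Havcr2, the gene of TIM-3, had 2487, 2550 and 2300, against 2376, 4069 and 3304 with SEMA6A alone (log2 difference -0.38). Of the PD-1 ligand genes, Pdcd1lg2 had 1746, 1785 and 1686, against 1405, 992 and 1238 (0.53 ± 0.17), and Cd274 had 369, 394 and 483 against 451, 340 and 404 (0.06). Of the 15 tested members, 7 were above 0 and 8 below, with a median of -0.19. At an unadjusted p under 0.05, 1 was higher (5.21% of all genes) and 2 lower (6.3%). Without SEMA6A replicate 2 the median was -0.20. It was -0.44 without replicate 1, when Lag3 (-1.75) and Ctla4 (-1.36) passed, while their differences were -0.83 and -0.49 without SEMA6A replicate 2.

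Cytotoxic granule genes were among the brightest on the arrays and were divided, with 9 of 19 above 0 and a median of -0.02. Gzmb, granzyme B, had 40922, 43736 and 40735 on the SEMA6A+SEMA3A arrays, against 47447, 42091 and 46612 on the SEMA6A arrays (log2 difference -0.12 ± 0.06). Gzmc had 34257, 31218 and 34318, against 34908, 32154 and 34014 (-0.02). Prf1, perforin, had 12778, 12296 and 11130, against 13043, 19140 and 15234 with SEMA6A alone (-0.37 ± 0.16, or -0.23 without SEMA6A replicate 2). Only Prf1 of these 3 was separate between the groups. Gzmf, a granzyme of strongly activated mouse killer cells, was higher, at 18890, 16705 and 15644 against 15696, 5996 and 9454 (0.82 ± 0.25, or 0.48 without SEMA6A replicate 2). It passed without SEMA6A replicate 1 (1.18). Gzmk differed by -0.68 ± 0.35.

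**Figure D5:**
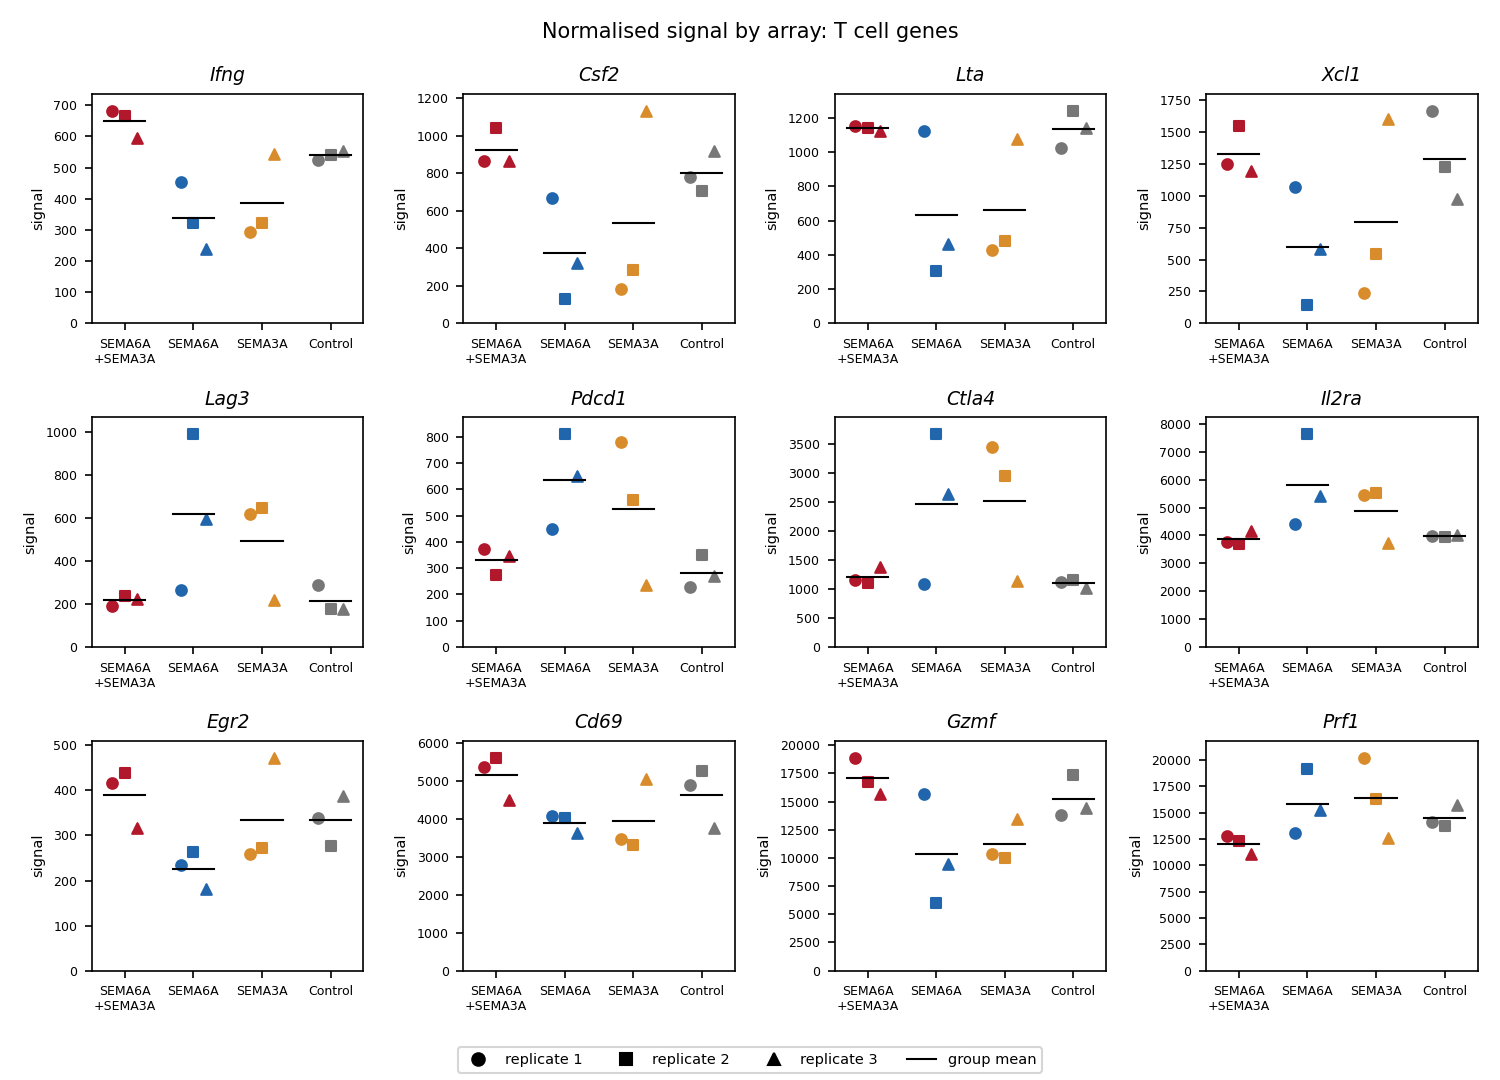
Normalised signal (linear axis from 0) of 12 T cell genes on all 12 arrays, with SEMA6A+SEMA3A left, then SEMA6A, SEMA3A and Control. Symbols are replicates and bars are group means. For Csf2, Lta, Lag3 and Ctla4, SEMA6A replicate 1 and SEMA3A replicate 3 lie near the SEMA6A+SEMA3A and Control arrays, and the other arrays of the SEMA6A and SEMA3A groups lie apart from them.

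T cell receptor signalling was represented by the receptor complex and by the genes it induces early. Of 16 receptor and coreceptor genes, 10 were above 0, with 2 higher (5.21% of all genes) and 2 lower (6.3%) at an unadjusted p under 0.05. Cd3e, a signalling chain of the receptor, had 4775, 4864 and 4213 on the SEMA6A+SEMA3A arrays, against 5215, 6566 and 5619 on the SEMA6A arrays (log2 difference -0.32 ± 0.11). Cd6, a scavenger-type receptor that tunes T cell activation, had 217, 199 and 227, against 153, 33.7 and 58.7 with SEMA6A alone (1.43 ± 0.42). The groups were separate in both genes. Lat, the adaptor that nucleates signalling complexes, differed by 0.29 ± 0.11, and Fyn, a Src-family kinase, by -0.28 ± 0.12 (-0.17 without SEMA6A replicate 2), both with overlap. The other probe set of Fyn differed by -0.02, with means of 1849 on the SEMA6A+SEMA3A arrays and 1879 on the SEMA6A arrays. Cd8a had 3484, 3056 and 3867, against 3900, 1830 and 3974 (0.18). Cd6 passed without SEMA6A replicate 1 (1.92).

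Among 25 immediate early and receptor-induced genes, 12 were above 0, and 4 were higher (5.21% of all genes) and 1 lower (6.3%) at an unadjusted p under 0.05. Egr2, a transcription factor of early activation and of tolerance, had 417, 438 and 316 on the SEMA6A+SEMA3A arrays, against 233, 264 and 181 on the SEMA6A arrays (log2 difference 0.75 ± 0.22). Its relative Egr3 had 830, 1298 and 888, against 709, 530 and 651 with SEMA6A alone (0.64 ± 0.20). Cd69, an early activation marker that holds cells in tissue, had 5373, 5606 and 4506, against 4059, 4008 and 3622 (0.40 ± 0.16). In these 3 genes the groups did not overlap, and without SEMA6A replicate 2 the differences were 0.86 for Egr2, 0.53 for Egr3 and 0.42 for Cd69. The opposite sign was seen for Jund, a partner of FOS in AP-1, at 9540, 9640 and 9693 against 9751, 16009 and 12079 with SEMA6A alone (-0.36 ± 0.15). Jund passed without SEMA6A replicate 1 (-0.53) and differed by -0.17 without SEMA6A replicate 2.

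Il2ra, the high-affinity subunit of the receptor for the interleukin-2 given to all cultures, had 3780, 3703 and 4163 on the SEMA6A+SEMA3A arrays, against 4406, 7635 and 5433 on the SEMA6A arrays (log2 difference -0.55 ± 0.18, or -0.33 without SEMA6A replicate 2). The groups were separate, although only 1 of 2 probe sets had that sign, and the gene passed without SEMA6A replicate 1 (-0.73). Socs2, a feedback inhibitor of cytokine signalling, had 1830, 1982 and 1893, against 2267, 2282 and 2677 (-0.33 ± 0.14), with all 5 probe sets of the same sign. Socs1 leaned the other way, at 926, 827 and 821 against 782, 312 and 716 (0.60 ± 0.28, or 0.19 without SEMA6A replicate 2). Of the 17 tested members of the receptor and feedback list, 7 were above 0 and 10 below.

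Lineage and memory transcription factors had 15 of 21 members below 0. At an unadjusted p under 0.05, 2 were higher (5.21% of all genes) and 4 lower (6.3%). Klf2, which keeps homing receptors of resting T cells on, had 154, 114 and 114 on the SEMA6A+SEMA3A arrays, against 197, 224 and 219 on the SEMA6A arrays (log2 difference -0.69 ± 0.19, or -0.65 without SEMA6A replicate 2). Runx1 was dim, at 5.34, 39.6 and 24.1 against 45.2, 56.1 and 75.1 (-1.03 ± 0.32). Both were separate, Runx1 on the probe set used. The other Runx1 probe sets past the filter differed by -0.87, 0.06 and -0.11. Id2, which supports effector CD8 T cells, had 16516, 19140 and 15994, against 15791, 6776 and 12462 with SEMA6A alone (0.64 ± 0.22). Batf3 had 267, 254 and 239, against 251, 88.5 and 112 (0.82 ± 0.29). Id2 (0.90) and Batf3 (1.22) passed without SEMA6A replicate 1, while their differences were 0.29 and 0.55 without SEMA6A replicate 2. Tbx21, the gene of T-bet, had 1078, 1469 and 1196, against 1179, 1843 and 1245 (-0.17), and Eomes differed by -0.08, so the main effector regulators overlapped between the groups.

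Homing and memory markers had 13 of 17 members below 0. At an unadjusted p under 0.05, 2 were higher (5.21% of all genes) and 4 lower (6.3%). The groups did not overlap for 0 members (6.75% of all genes higher and 7.31% lower). Ccr7, which guides cells to lymph nodes, had 254, 254 and 274 on the SEMA6A+SEMA3A arrays, against 292, 56.0 and 114 on the SEMA6A arrays (log2 difference 0.95 ± 0.41). Cd44, a hyaluronan receptor of activated cells, had 3784, 4237 and 3473, against 3549, 1301 and 2281 (0.80 ± 0.32). Ccr2, a receptor for inflammatory chemokines, had 3187, 3746 and 3257, against 3592, 6386 and 5011 with SEMA6A alone (-0.52 ± 0.20), and 2 of its 4 probe sets had that sign. SEMA6A replicate 1 lay within the range of the SEMA6A+SEMA3A arrays for Cd44 and Ccr2, and above it for Ccr7. Il18rap, a subunit of the interleukin-18 receptor, differed by -0.45 ± 0.17, and by -0.06 on its other, dimmer probe set. Among 13 natural killer receptor genes 9 were above 0. Klrc1, which encodes the inhibitory NKG2A, had 1993, 2309 and 2192, against 1848, 903 and 1392 with SEMA6A alone (0.70 ± 0.31), and Klre1 differed by 0.32 ± 0.14, both without overlap. Ccr7 (1.51), Ccr2 (-0.74) and Il18rap (-0.62) passed without SEMA6A replicate 1. Without SEMA6A replicate 2 the differences were 0.46 for Ccr7, -0.32 for Ccr2, 0.42 for Cd44 and 0.43 for Klrc1.

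The genes that interferon-gamma induces had medians close to that of all genes. Of 14 induced GTPases and regulators, 7 were above 0 and 7 below, of which 0 had an unadjusted p under 0.05, and the median was 0.02. Irgm1, which defends against intracellular parasites, had 1142, 904 and 1087 on the SEMA6A+SEMA3A arrays, against 1264, 452 and 781 on the SEMA6A arrays (log2 difference 0.43 ± 0.31). Class I presentation genes had a median of 0.01, with 10 of 17 above 0, and H2-K1, a class I heavy chain, had 30564, 33142 and 29583, against 34795, 31318 and 34423 (-0.11 ± 0.07), but only 2 of its 4 probe sets had that sign, and the other 2 differed by 0.64 ± 0.15 and 0.58 ± 0.14. The type I interferon list had 18 of 28 members above 0, 2 of them with an unadjusted p under 0.05 (5.21% of all genes), and a median of 0.22. Ifit3 was dim and separate, at 55.5, 78.8 and 53.6 against 39.0, 18.2 and 39.1 (0.73 ± 0.30). Xaf1 had 994, 1167 and 1086, against 1078, 380 and 775 with SEMA6A alone (0.65 ± 0.26), and passed without SEMA6A replicate 1 (0.97). It differed by 0.24 without SEMA6A replicate 2, and its other probe set had the opposite sign. Without SEMA6A replicate 2 the list's median was 0.14.

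Genes of cell growth and division differed by function. DNA replication genes had 35 of 41 members above 0, with 8 higher (5.21% of all genes) and 3 lower (6.3%) at an unadjusted p under 0.05. The median was 0.19, or 0.08 without SEMA6A replicate 2. Pola1, the catalytic subunit of the polymerase that primes replication, had 2552, 2747 and 2614 on the SEMA6A+SEMA3A arrays, against 2276, 1441 and 1426 on the SEMA6A arrays (log2 difference 0.65 ± 0.17). Ccne2, a cyclin of S phase entry, had 1049, 1107 and 994, against 992, 639 and 608 with SEMA6A alone (0.52 ± 0.19). Both were separate, with SEMA6A replicate 1 the highest of its group. Without SEMA6A replicate 1, 7 replication genes passed, all higher, among them Pola1 (0.87), Ccne2 (0.74) and Orc6 (0.66), of the origin recognition complex, which differed by 0.23 without SEMA6A replicate 2. In the mitosis list 23 of 35 were above 0 with a median of 0.06. The proliferation marker Mki67 was lower, at 9166, 9136 and 9395 against 10296, 11961 and 9918 (-0.21 ± 0.08, or -0.13 without SEMA6A replicate 2), and Nuf2, of the kinetochore, was higher, by 0.26 ± 0.11. MYC targets and ribosome assembly genes had 25 of 31 above 0, with a median of 0.20, or 0.06 without SEMA6A replicate 2. Nop16, a nucleolar assembly factor, had 2923, 2669 and 2759, against 2908, 951 and 1902 with SEMA6A alone (0.67 ± 0.29, or 0.24 without SEMA6A replicate 2, and 1.04 without SEMA6A replicate 1, when it passed).

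Metabolic lists outside glycolysis had medians nearer to 0. Oxidative phosphorylation genes had 16 of 35 above 0 and a median of -0.01. Their member with the smallest p was Cycs, and the respiratory chain subunits Uqcrfs1 (-0.20 ± 0.09) and Uqcrc1 (-0.15 ± 0.07) were lower, without overlap. Cholesterol and fatty acid synthesis had 22 of 29 below 0, with 3 lower at an unadjusted p under 0.05 (6.3% of all genes). Srebf2, the master regulator of the cholesterol pathway, had 2198, 2417 and 2176 on the SEMA6A+SEMA3A arrays, against 2448, 3201 and 2720 on the SEMA6A arrays (log2 difference -0.29 ± 0.11), and the groups were separate. Its median was -0.16, or -0.06 without SEMA6A replicate 2. Unfolded protein and amino acid stress genes had 22 of 33 below 0 and a median of -0.15. At an unadjusted p under 0.05, 8 were lower (6.3% of all genes) and 1 higher (5.21%). Aars, the alanyl-tRNA synthetase, had 3618, 2936 and 3665, against 4034, 5982 and 3742 (-0.40 ± 0.16). Slc3a2, the heavy chain of large amino acid transporters, had 4893, 4606 and 4400, against 5137, 6712 and 5319 with SEMA6A alone (-0.29 ± 0.11). Shmt2, of mitochondrial serine catabolism, differed by -0.30 ± 0.12 on the probe set used, and by -0.12, 1.32 and -0.94 on its others. On the probe sets used, Aars, Slc3a2 and Shmt2 were each separate between the groups. The differences were -0.20 for Aars, -0.17 for Slc3a2, -0.15 for Shmt2 and -0.19 for Srebf2 without SEMA6A replicate 2.

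Idh1, the cytosolic isocitrate dehydrogenase that makes NADPH, had 471, 428 and 430 on the SEMA6A+SEMA3A arrays, against 547, 1096 and 763 on the SEMA6A arrays (log2 difference -0.78 ± 0.20, or -0.53 without SEMA6A replicate 2). It was separate between the groups and passed without SEMA6A replicate 1 (-1.02), as did Pgd, of the pentose phosphate pathway (-0.48, and -0.13 without SEMA6A replicate 2). The list of NADPH and antioxidant enzymes had 15 of 22 below 0 with a median of -0.07. In haem synthesis and iron uptake 10 of 18 were above 0. Cpox, coproporphyrinogen oxidase, had 870, 805 and 664, against 367, 590 and 321 with SEMA6A alone (0.89 ± 0.26), and Urod, an enzyme just before it in the pathway, had 2601, 2631 and 2968, against 3047, 3979 and 3172 (-0.31 ± 0.11, or -0.19 without SEMA6A replicate 2). Both were separate, in opposite directions, and the second probe set of Cpox had the opposite sign. Tfrc, the transferrin receptor whose end-to-end ratio differed between the arrays, had 12935, 13208 and 13269, against 13371, 9908 and 9880 (0.26 ± 0.12). Its other, dimmer probe sets differed by -0.25 and 0.29. BCL2 family genes had 13 of 16 below 0. Bbc3, the gene of the death-promoting PUMA, had 212, 202 and 161, against 217, 404 and 266 (-0.55 ± 0.25, or -0.31 without SEMA6A replicate 2).

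Nrp1, the neuropilin that binds SEMA3A, had 77.8, 130 and 86.5 on the SEMA6A+SEMA3A arrays, against 134, 71.4 and 79.1 on the SEMA6A arrays (log2 difference 0.06 ± 0.31). The class A plexin genes Plxna1 (0.15 ± 0.25), Plxna3 (-0.06 ± 0.23) and Plxna4 (-0.08 ± 0.47) also overlapped between the groups. Nrp2, Plxna2, Sema3a and Sema6a did not pass the filter on low signals. Sema3a had means of 23.9 on the SEMA6A+SEMA3A arrays and 32.0 on the SEMA6A arrays. The RNA is described as that of the splenocytes, and any tumour cell part in it was not tested. These signals therefore do not check the knockdown or overexpression in the tumour cells. Of 23 tested receptor and signalling genes, 6 were above 0 and 17 below with a median of -0.08, or 0.01 without SEMA6A replicate 2. Fes, a kinase that acts downstream of plexin-A, had 111, 86.9 and 97.1, against 133, 145 and 180 with SEMA6A alone (-0.56 ± 0.20), without overlap. Rac1 (-0.02 ± 0.07) and Rhoa (-0.01 ± 0.06), the GTPases that plexins regulate, overlapped between the groups.

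Among the other semaphorins and plexins, Sema4c had 53.5, 18.4 and 38.1 on the SEMA6A+SEMA3A arrays, against 91.0, 68.5 and 80.7 on the SEMA6A arrays (log2 difference -0.92 ± 0.28). Plxnb3 had 99.3, 163 and 109, against 95.3, 41.6 and 45.4 with SEMA6A alone (0.91 ± 0.30), and its other probe set had the opposite sign. Sema4d, the semaphorin of activated T cells, had 6011, 6158 and 6246, against 6316, 8441 and 7080 (-0.24 ± 0.10, or -0.12 without SEMA6A replicate 2), with 1 of 3 probe sets of that sign. All 3 were separate between the groups. The list had 9 of 19 members above 0, and Plxnb3 passed without SEMA6A replicate 1 (1.21). Regulators of chemokine and other G protein-coupled signalling included Rgs1, which dampens migration to chemokines, at 2622, 3047 and 2232 against 1622, 2046 and 1851 (0.51 ± 0.13, or 0.59 without SEMA6A replicate 2). Its groups were separate. Arrb1, of the arrestins that switch such receptors off, had 265, 263 and 420, against 290, 1651 and 829 with SEMA6A alone (-1.22 ± 0.50, or -0.65 without SEMA6A replicate 2), and passed without SEMA6A replicate 1 (-1.87).

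The cultures carried T cell RNA after 9 days. The summed signal of the 8 defining T cell markers was 65145 to 67708 on the SEMA6A+SEMA3A arrays, against 65838 to 69310 on the SEMA6A arrays, with Cd4 below the filter. B cell markers summed to 122 to 160, against 144 to 195 with SEMA6A alone, with only Cd79b of 4 past the filter. Both ranges overlapped. Macrophage markers summed to 609 to 628, against 564 to 778, and Adgre1, Lyz2 and C1qa were below the filter. Mast cell markers summed to 802 to 941, against 771 to 1225 with SEMA6A alone. Fibroblast markers summed to 95.6 to 152, against 39.4 to 82.4 with SEMA6A alone, and these ranges did not overlap. They were dim, and only Col1a2 (0.73) of the 3 was past the filter. The wider fibroblast list had 3 of 5 genes above 0 and a median of 0.01. S100a8 and S100a9 of neutrophils were below the filter. Their sum leaned higher, at 25.8 to 60.9 against 6.60 to 33.3 with SEMA6A alone, and the ranges overlapped. Of the wider lists, 7 of 12 macrophage genes and 4 of 6 mast cell genes were below 0. So were 3 of 4 neutrophil genes (median -0.66, or -0.32 without SEMA6A replicate 2). Above 0 were 6 of 8 dendritic cell genes and 3 of 3 erythroid genes. These erythroid genes were Epor (0.16), Tfrc (0.26) and Car2 (0.86). The defining erythroid marker Hba-a1 was below the filter, with means of 11.3 on the SEMA6A+SEMA3A arrays and 8.66 on the SEMA6A arrays. The neutrophil gene above 0 was Ctsg (0.12), the brightest of the 4, with means of 843 on the SEMA6A+SEMA3A arrays and 782 on the SEMA6A arrays. Ltf, the lactoferrin of neutrophil granules, had 53.1, 79.7 and 75.4 on the SEMA6A+SEMA3A arrays, against 79.6, 189 and 268 on the SEMA6A arrays (log2 difference -1.07 ± 0.50), and the groups overlapped. Il1r2, a decoy receptor on neutrophils and some T cells, had 77.6, 98.8 and 67.5, against 70.9, 421 and 200 (log2 difference -1.06 ± 0.49), and passed without SEMA6A replicate 1 (-1.67), while it differed by -0.51 without SEMA6A replicate 2.

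The SEMA3A difference in cultures with SEMA6A was then set against that in cultures without it. No gene passed the test of the interaction (limma, 0% called, lowest adjusted p 0.197), and 2037 had an unadjusted p under 0.05 (18%), 886 higher (7.82%) and 1151 lower (10.2%). Alone, SEMA3A against Control had 990 genes at an unadjusted p under 0.05 (8.74%) and 0 past the adjusted threshold. Leaving out SEMA6A replicate 1 let 1286 genes pass the interaction, and leaving out SEMA3A replicate 3 let 281 pass. Each of these arrays lies near the group it is compared with, so both omissions widen the interaction by construction. Leaving out SEMA3A replicate 1 lowered the number with an unadjusted p under 0.05 to 1297. The interaction counts of lists below use all 12 arrays. The 2 comparisons share no array, so their values can stand side by side.

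Of the 17 glycolysis genes, 17 were below 0 for SEMA6A+SEMA3A against SEMA6A and 17 above 0 for SEMA3A against Control (51.7% of all genes were above 0 there), with medians of -0.28 and 0.36. The median interaction was -0.74, and 13 members had an unadjusted p under 0.05, all lower (10.2% of all genes). Hypoxia targets had medians of -0.34 with SEMA6A and 0.34 without it. In the interaction, 20 of 27 had an unadjusted p under 0.05, all lower (10.2% of all genes). Bnip3 and Higd1a were among the 5 lower genes with the smallest interaction p, with Irgq, Akr1b10 and Idh1. For Bnip3 the SEMA3A arrays had 17533, 16419 and 10912, against 8099, 9640 and 9362 on the Control arrays, and the interaction was -1.24 ± 0.25 (adjusted p = 0.197). That is, the SEMA3A group was above Control, while the SEMA6A+SEMA3A group was below SEMA6A. Irgq differed by -0.88 with SEMA6A and by 0.69 without it (interaction -1.56 ± 0.31). Akr1b10, an aldo-keto reductase, had an interaction of -1.17 ± 0.24 and Idh1 of -1.33 ± 0.28.

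On the higher side, Nsg2, known as a neuronal vesicle protein gene, had the smallest interaction p. It had 70.8, 59.7 and 91.9 on the SEMA3A arrays, against 157, 133 and 172 on the Control arrays, and 153, 160 and 160 on the SEMA6A+SEMA3A arrays, against 103, 108 and 109 on the SEMA6A arrays (interaction 1.43 ± 0.24). Neither pair overlapped, and the directions were opposite. Ccne2 had 544, 602 and 902 on the SEMA3A arrays, against 1127, 1287 and 1148 on the Control arrays, and an interaction of 1.33 ± 0.27. The others of the 5 were Slc5a5 (1.94 ± 0.34), Scyl2 (1.16 ± 0.23) and Cycs (0.59 ± 0.12), in which the SEMA3A difference without SEMA6A was -0.39, -0.34 and -0.19. For Ifng the difference was 0.95 with SEMA6A and -0.52 without it (interaction 1.46 ± 0.32). Lag3 had 616, 645 and 219 on the SEMA3A arrays, against 288, 176 and 176 on the Control arrays, a difference of 1.04, and its interaction was -2.30 ± 0.61. Arrb1 had 1256, 809 and 381, against 221, 239 and 220 on the Control arrays, a difference of 1.62, and an interaction of -2.84 ± 0.71. Replication and MYC lists had median interactions of 0.46 and 0.37. At an unadjusted p under 0.05, 17 of 41 and 14 of 31 members were higher (7.82% of all genes). In Ifng, Lag3 and Arrb1, SEMA3A replicate 3 lay nearer to the Control arrays than SEMA3A replicates 1 and 2 did.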

How the data were processed

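RNA of splenocytes was measured on 12 Affymetrix Mouse 430 2.0 arrays, 3 for each of 4 groups taken from the labels. The deposited values are MAS5 signal intensity on a linear scale, per the submitters' processing notes (MAS5 version: not given in the sources used here). All of the authors' arrays had a trimmed mean of 500.004, so they had been scaled. Because array medians differed by 1.26 times, log2(signal + 16) was quantile normalised, and printed signals are these values turned back to the linear scale. Of 45037 probe sets that are not controls, 34945 name 1 gene, 932 several and 9160 none here, and only the first were used. A probe set had to exceed its array's median on at least 3 arrays, and the one with the highest mean stood for its gene, which left 11325 of 18193 genes. A linear model with 1 mean per group over all 12 arrays was fitted in limma 3.58.1 (R 4.3.3, eBayes with trend), with Benjamini-Hochberg adjustment over all genes tested, and was tested on simulated data. Tables and figures used Python 3.11.15, pandas 2.3.3 and matplotlib 3.10.9. Precision is limited by how many arrays there were.

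The text names 10 genes per direction by smallest p, 5 per direction for the interaction, up to 4 with the smallest p in each list, and a fixed panel. Further members serving as examples were picked with their values in view, and the members and lists were chosen with earlier results of these data known. Replicate numbers did not pair the arrays: deviations of same-numbered SEMA6A+SEMA3A and SEMA6A arrays correlated at 0.0730, 0.0835 and -0.0129 over genes. Alternatives covered the normalization, pseudocount, filter, choice of probe set, prior, array weights, replicate block and leaving out each array.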

Additional observations from a re-analysis of the deposited data

How the results depend on the processing

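The count of 0 genes past the adjusted threshold for SEMA6A+SEMA3A against SEMA6A held under every alternative run except 3. It was 1 without the prior trend (Slc5a5, adjusted p 0.0428 in limma), 6 with array weights and 0 to 381 when leaving out 1 array, with 381 reached without SEMA6A replicate 1. The interaction count was 1580 with array weights and 0 to 1286 when leaving out 1 array (1286 without SEMA6A replicate 1, 281 without SEMA3A replicate 3). These omissions of SEMA6A replicate 1 and SEMA3A replicate 3 widen the interaction by construction. With the replicate number as a block both counts were 0, with 1095 and 1764 genes at an unadjusted p under 0.05. Genes at an unadjusted p under 0.05 numbered 810 with only the 6 arrays compared and 699 to 2949 when leaving out 1 array, against 1304 as reported. With the probe set of the largest interquartile range, 6 genes were counted as reversed: Lypla1 (-0.11), Fyttd1 (0.48), Klra7 (0.67), Cox5b (0.072), Sema4d (0.049) and Il1rap (-0.28). The cause was not tested. Over 130 named genes and 2824 values, 55 newly passed and 2763 were counted as neither reversed nor newly passing. A reversal was counted only for genes whose interval as reported excluded 0. Changes of direction in other genes may therefore be among the 2763. The glycolysis median was -0.41 to -0.18 and the hypoxia median -0.46 to -0.24 when leaving out 1 array.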
